A study of Mus musculus with 31 samples.

Results

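Laser-microdissected tissue of the olfactory nerve layer (ONL) was compared with that of the olfactory nerve in mouse embryos at E13.5, gene by gene, across the transcriptome. The comparison took 12 of the 31 RNA-seq libraries of the series, 5 of the ONL and 7 of the nerve, and 19332 of the 47729 genes listed passed the filter on low counts and were tested. All embryos carried the Sox10:H2BVenus BAC transgene, in which Sox10 regulatory sequence drives a nuclear Venus protein in neural crest-derived cells, and no other genetic change or treatment is given. Tissue was cut from cryosections with the Venus signal as the guide and several sections were pooled per sample, so a library held the glia together with the axons, vessels and connective tissue around them.

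The libraries were not grouped by their names. In the study's own table of group means, the column named E13.5 ONL is the equal-weight mean of the libraries labelled E11.5_ON1 to E11.5_ON4 and E13.5_ON1, and the column named E13.5 olfactory nerve that of E13.5_ON2 to E13.5_ON7 and E13.5_ONL1. A non-negative least-squares fit of the 31 deposited libraries to 1543 genes of that table gave a weight of 0.200 to each of those 5 libraries, 0.143 to each of those 7 and 0.250 to each of the 4 libraries labelled E13.5_ONL2 to E13.5_ONL5 in the column named E11.5 olfactory nerve. The averaged groups are used throughout, as ONL libraries 1 to 5 and nerve libraries 1 to 7 in the order just given, and values for the groups as labelled are given for many of the gene lists and for chosen genes. No library counted as ONL here carries an ONL label, and only 1 library counted as nerve carries one, so the labels and the averaged groups contradict each other and both readings give different results. The embryonic globin transcripts of red cells were compared between these sets of libraries. The gene Hbb-bh1, which the primitive red cells of younger embryos transcribe, read 9.68 to 36.5 CPM (counts scaled to the size of the library) in the 5 ONL libraries and 24.4 to 84.9 CPM in the 7 nerve libraries, against 169.9 to 2402 CPM in the 4 libraries labelled E13.5_ONL2 to E13.5_ONL5. The 4 libraries labelled E11.5 thus held less of this transcript than any of the 4 others. The other embryonic globins did not separate the sets, since Hba-x read 155 to 556 CPM in the ONL, 310.2 to 803 CPM in the nerve and 336 to 4339 CPM in those 4 libraries, and Hbb-y 2914 to 6199, 4928 to 8368 and 675 to 10301 CPM. By in situ hybridization the study saw Npy, Prss56, Wif1, Vtn and Hes5 in ONL glia at about E13.5 and not in nerve glia at E11.5. The 5 ONL libraries read 166 to 458 CPM of Npy, 32.9 to 90 of Prss56 and 51.8 to 72.6 of Wif1. The libraries labelled E13.5_ONL2 to E13.5_ONL5 read 0.0543 to 2.44, 0 to 0.318 and 0 CPM. Vtn read 136 to 225 against 40.6 to 71.3 CPM, and Hes5, with overlap, 6.36 to 63.2 against 0.583 to 9.4 CPM. Which grouping is right was not tested.

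Olfactory ensheathing cells (OECs) are the neural crest-derived glia of the olfactory system. They wrap bundles of sensory axons along the whole way from the nasal epithelium, through the mesenchyme of the snout, to the surface of the olfactory bulb, where the axons spread out in the ONL before they reach their targets. At the stage sampled the nerve runs through nasal tissue beside a neurogenic epithelium, while the ONL is still thin and lies against the meninges and the wall of the telencephalon. Glia of the ONL and of the nerve are known to differ, and the comparison asks which genes set the ONL piece apart from the nerve piece so early.

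Depth ranged from 3512627 to 27398916 counts per library in the ONL and from 5297347 to 16413112 in the nerve, and 3 counts correspond to 0.107 to 0.83 CPM and 0.175 to 0.52 CPM, respectively. ONL library 1 was the shallowest. Sox10, Fabp7 and Gap43, genes of glia and growing axons, were detected in every library of both groups, while Omp, the marker of mature sensory neurons, reached at most 1.11 CPM in the ONL. Mitochondrial transcripts took 1.09% to 2% of the scaled counts in ONL libraries and 0.972% to 1.89% in nerve libraries, and these ranges overlapped. The female transcript Xist exceeded the Y-linked transcript Ddx3y in 4 of 5 ONL libraries and 3 of 7 nerve libraries, and the part of sex in the results was not tested. The pieces outnumber the embryos and the labels do not say which pieces share one, so the p-values below treat pieces as independent. Pieces of the same region that share an embryo make them too small. Pieces of both regions from the same embryo can make them too large, and the net effect is not known. On the first principal component of the 500 most variable genes across all 31 libraries, with 43.8% of the variance, the ONL libraries lay between 28.2 and 34.2 and the nerve libraries between -28.2 and -25.6. The library labelled E13.5_ON1 stood at 31 and that labelled E13.5_ONL1 at -25.77. The 4 libraries labelled E13.5_ONL2 to E13.5_ONL5 lay apart from both groups, between -3.21 and 1.42. The bearing of these positions on the grouping was not tested.

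Of the 19332 genes, 6087 differed between ONL and nerve at an adjusted p under 0.05 (quasi-likelihood F test in edgeR, adjusted by Benjamini and Hochberg), which is 31.5% of those tested. The ONL was higher for 2980 of them (15.4% of all genes tested) and lower for 3107 (16.1%). The median log2 fold change over all genes tested was -0.03, and 1230 genes (6.36%) were called with a log2 fold change of at least 3 in either direction, 530 of them higher in the ONL and 700 lower. The libraries of the groups did not overlap for 19.6% of the genes, with the ONL higher for 9.9% and lower for 9.67%. Between the groups as labelled, 3421 genes (17.7%) were called, 8.88% of all genes higher and 8.81% lower, and of the 1420 genes called under both groupings 939 had the same direction and 481 the opposite one. In bulk tissue, fewer cells of a type and less RNA per cell cannot be told apart, and every difference below is one in the RNA of the piece. Differences are given as log2 fold changes, ONL minus nerve, with the standard error and the adjusted p of that test, so that a negative value means less in the ONL.

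**Figure D1:**
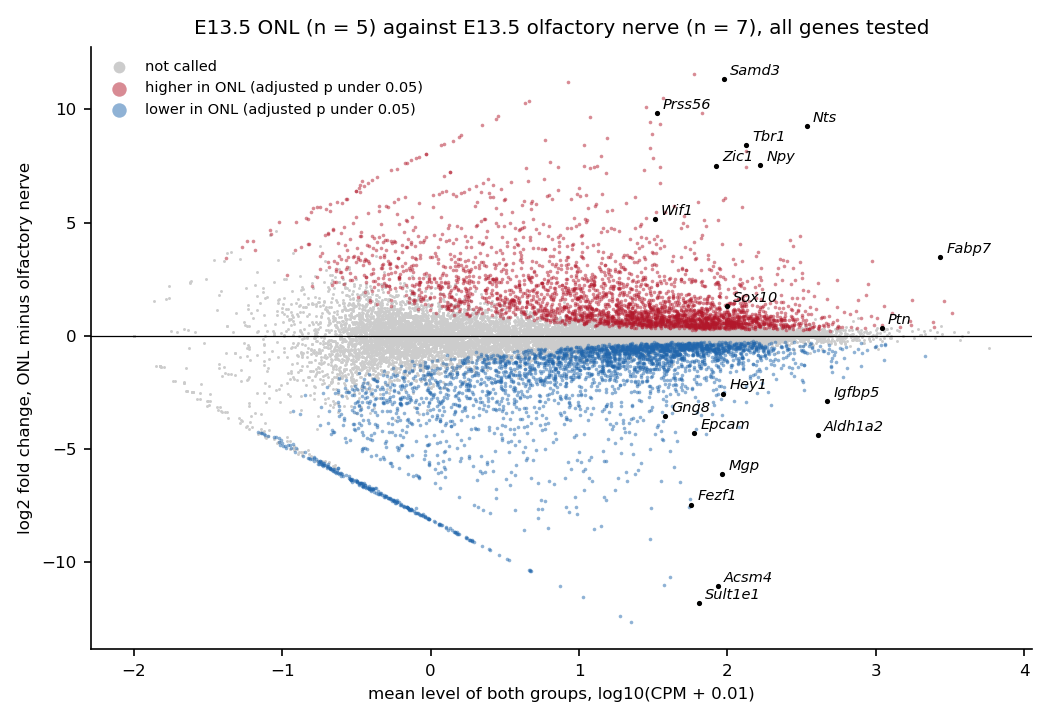
Mean level of each tested gene in both groups (x axis, log10 of CPM plus 0.01) against its log2 fold change, ONL minus nerve (y axis); each point is 1 of 19332 genes, red and blue for the 2980 and 3107 genes called higher and lower in the ONL. The straight edges at the left are genes with no count in 1 of the groups, whose fitted fold change is set by the prior count.

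The largest rises in the ONL were taken among called genes whose libraries did not overlap and whose ONL mean reached 50 CPM. They were 12 genes of mixed kinds. Their large fold changes, small adjusted p and lack of overlap follow from this choice and describe it. Eomes and Tbr1, T-box factors of cortical and mitral cell precursors, Fezf2, a forebrain regulator, Tfap2e, an AP-2 factor of the bulb, Pou3f2, a neural POU factor, and Mir124-2hg, a host gene of the neuronal microRNA miR-124, stood in this list with the glial gene Prss56, the neuropeptide gene Nts, the meningeal and neural factor Zic4, the GABA receptor gene Gabra2, Samd3 and Gm17750. Tbr1 (chr2:61802930-61814114, GRCm38) read 208, 327, 346, 228 and 228 CPM in the 5 ONL libraries and 0.0584, 0.52 and 1.75 CPM at the lowest, median and highest of the 7 nerve libraries. Its log2 fold change was 8.41 ± 0.55 SE, adjusted p = 8e-13. Nts, which encodes neurotensin, read 916, 649, 558, 597 and 696 CPM in the ONL and at most 2.25 CPM in the nerve (9.25 ± 0.87 SE, adjusted p = 8.7e-10). Mir124-2hg held 3 counts in all 7 nerve libraries together, against 119.9 ± 25 CPM (SD, n = 5) in the ONL, a ratio of 3677 with a 95% counting interval of 1258 to 17833. Samd3 (11.34 ± 0.75 SE, adjusted p = 9.9e-13), Tfap2e (10.50 ± 0.90 SE, adjusted p = 5.4e-10), Eomes (10.10 ± 0.97 SE, adjusted p = 1.5e-09), Gm17750 (9.82 ± 0.70 SE, adjusted p = 4.5e-12), Fezf2 (9.46 ± 0.94 SE, adjusted p = 5.3e-09), Pou3f2 (9.38 ± 0.92 SE, adjusted p = 2.2e-09), Zic4 (8.92 ± 0.84 SE, adjusted p = 9.5e-10) and Gabra2 (8.29 ± 0.59 SE, adjusted p = 4.1e-12) were likewise near 0 in the nerve, at 0.35, 0.166, 0.173, 0.35, 0.58, 0.49, 0.35 and 0.467 CPM in the highest nerve library. Leaving out 1 library moved the log2 fold change to 13.21 without nerve library 6 for Samd3, 11.12 without nerve library 6 and 11.16 without nerve library 7 for Tfap2e, 13.08 without nerve library 7 for Fezf2 and 11.05 without nerve library 6 for Pou3f2. Under the labels 5 of these 12 genes were called lower in the ONL and none higher, with Nts at -6.51 and Tbr1, which was not called, at -2.84.

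The largest falls were taken by the same rule, with the mean of the nerve, so their size and lack of overlap follow from it too. Sult1e1, a sulfotransferase, Acsm4, an acyl-CoA synthetase known from olfactory mucosa, Fmo6, a flavin monooxygenase, and Inmt, a methyltransferase, are enzymes that act on small molecules. Cldn6, Cldn9, Krt8 and Krt18 are tight-junction and keratin genes of epithelia, Fezf1 is a factor of olfactory neuron precursors, Pax9 a factor of craniofacial mesenchyme, Mgp a mineral-binding matrix protein gene and Iigp1 an interferon-inducible GTPase gene. Acsm4 (chr7:119690026-119714565) read 95.8, 179 and 225 CPM at the lowest, median and highest of the nerve libraries and 0.83, 0.144, 0, 0 and 0 CPM in the ONL (-11.06 ± 1.22 SE, adjusted p = 1.9e-08). Sult1e1 held 2 counts in the 5 ONL libraries together, both in ONL library 4, against 129 ± 39.3 CPM (SD, n = 7) in the nerve, a ratio of 4386 (95% counting interval 1214 to 36219.9). Iigp1 with 2 counts, all in ONL library 3, and Fmo6 with 3 counts in ONL libraries 3 and 4 gave ratios of 2527 (699 to 20872) and 1849 (633 to 8969). The other genes of this list had log2 fold changes of -9.01 (Pax9), -7.61 (Cldn6), -7.56 (Cldn9), -7.47 (Fezf1), -7.21 (Inmt), -6.48 (Krt8), -6.41 (Krt18) and -6.11 (Mgp), with no ONL library above 5.98 CPM for any of them. A single library moved the log2 fold change to -12.19 without ONL library 1 and -10.40 without ONL library 5 for Acsm4, -10.10 without ONL library 5 for Pax9, -8.46 without ONL library 4 for Cldn9 and -7.14 without ONL library 5 for Mgp. Under the labels all 12 were lower in the ONL at the point estimate and none was called.

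Sox10, the transcription factor that marks neural crest glia, guided the dissection, so its level describes the pieces and is no result. It read 71.4, 110.5, 179, 131 and 219 CPM in the ONL libraries and 39.9, 48.9 and 85.4 CPM at the lowest, median and highest of the nerve libraries, with ONL library 1 inside the range of the nerve. Its log2 difference of 1.31 is given beside the glial genes below. The mean log2 ratio of a gene to Sox10 in the same library, with 0.5 CPM added to both, was compared between groups as a description. Whether glia of both pieces hold equal Sox10 RNA was not tested, and other cells can add RNA of the compared genes. The ratio is therefore no level per glial cell.

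**Figure D2:**
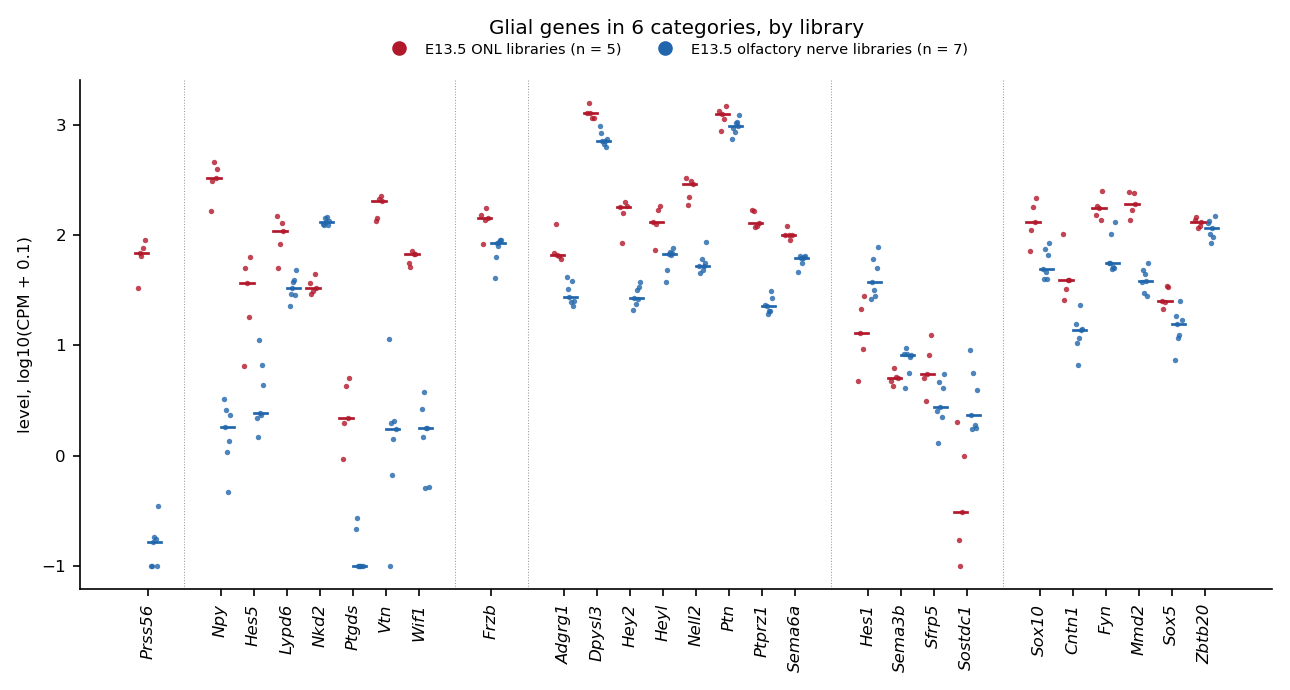
Level of 27 of the 30 glial genes (x axis, italic symbols) in each library (y axis, log10 of CPM plus 0.1), 5 ONL libraries in red and 7 nerve libraries in blue, with a bar at the median; dotted lines part the 6 categories, from inner ONL at the left to all OECs and Schwann cells at the right. Prss56, Npy, Ptgds, Vtn and Wif1 show wide gaps, and Nkd2, Hes1 and Sostdc1 run the other way.

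The study sorted 30 glial genes by where they were found at E16.5, from the inner ONL alone to all OECs and Schwann cells. Of these, 22 were higher in the E13.5 ONL than in the nerve, with Sox10 itself among them, 4 were lower and 4 were not called, with a median log2 fold change of 1.33 against -0.03 over all genes, where 31.5% were called. The list was drawn up with libraries of this series, so its count is not independent evidence of a direction. Under the labels 5 were higher and 9 lower. In the ONL, Npy had the highest level per kilobase of exon of the 30 genes, at 588 CPM per kb, followed by Ptn at 356, Dpysl3 at 195 and Vtn at 91.2 CPM per kb. In the nerve the order was led by Ptn at 286 and Dpysl3 at 114 CPM per kb, and Npy stood at 3.09 CPM per kb.

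Npy, Vtn, Wif1 and Ptgds, listed at E16.5 for ONL OECs alone, were low in the nerve or nearly absent from it at E13.5. The same held for Prss56, listed at E16.5 for the inner ONL alone. Npy (chr6:49822710-49829507), which encodes neuropeptide Y, read 166, 313, 458, 329 and 397 CPM in ONL libraries 1 to 5 and 0.37, 1.73 and 3.16 CPM at the lowest, median and highest of the nerve. The log2 fold change was 7.54 ± 0.47 SE, adjusted p = 3.6e-13, the groups lay far apart, and the ratio to Sox10 differed by 6.01. Prss56 (chr1:87183313-87188405), a serine protease gene, read 32.9, 69.1, 65.1, 75.9 and 90 CPM in the ONL and no more than 0.249 CPM in any nerve library (9.84 ± 0.71 SE, adjusted p = 4.8e-12). Vtn, the gene of the adhesive protein vitronectin, read 136, 144, 215, 225 and 206 CPM in the ONL, and its nerve libraries lay between 0 and 11.3 CPM (5.98 ± 0.73 SE, adjusted p = 1.1e-07). Wif1, which encodes a secreted Wnt inhibitor, read 56.4, 51.8, 72.6, 67.5 and 67.7 CPM in the ONL against 0.406, 1.68 and 3.66 CPM in the nerve (5.17 ± 0.39 SE, adjusted p = 4.4e-11), with an ONL mean of 63.2 ± 8.72 CPM (SD, n = 5). The lowest ONL library stood well above the highest nerve library for each of these 4 genes. Ptgds, a prostaglandin D synthase gene, was low everywhere at this stage, at 0.83, 1.87, 4.16, 2.08 and 4.94 CPM in the ONL and 3 counts in all 7 nerve libraries, a ratio of 108 (95% counting interval 36.5 to 527). By in situ hybridization at about E13.5 the study saw no Ptgds signal in OECs. At E16.5 it saw strong Ptgds signal in the leptomeninges besides that in ONL OECs. Which cells gave the Ptgds counts at E13.5 was not tested. The log2 fold change was 10.54 without nerve library 7 for Prss56 and 7.10 without nerve library 1 for Vtn.

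Hes5, Lypd6 and Nkd2 differed in how they sat in this category. By in situ hybridization at about E13.5 the study found Hes5 in ONL OECs but no OEC signal for Lypd6 or Nkd2. At E16.5 it found Nkd2 in nasal mesenchyme as well as in ONL OECs. Which cells gave the Lypd6 and Nkd2 counts at E13.5 was not tested. Hes5, a Notch effector, read 6.36, 50.9, 36.9, 18.1 and 63.2 CPM in the ONL and 1.39, 2.35 and 11.2 CPM in the nerve (3.01 ± 0.52 SE, adjusted p = 2.8e-05), and ONL library 1 lay within the nerve's range. Lypd6, a membrane-linked regulator of Wnt signaling, was higher (1.61 ± 0.23 SE, adjusted p = 2.2e-06) without overlap. Nkd2, an intracellular Wnt antagonist, was lower in the ONL, at 36.5, 29, 31, 44 and 33.4 CPM against 123 to 146 CPM in the nerve (-1.94 ± 0.19 SE, adjusted p = 1.4e-09). At E16.5 the outer ONL libraries of the series held 1338 to 2915 CPM of Npy, 244 to 579.7 CPM of Prss56, 1115 to 1859.9 CPM of Vtn, 129 to 206 CPM of Ptgds and 39.7 to 63.7 CPM of Wif1, set beside the E13.5 values with no test of stage. Under the labels, Npy (-5.68, adjusted p = 0.0075), Prss56 (-6.44, adjusted p = 0.0096) and Wif1 (-8.02, adjusted p = 0.00036) were lower in the ONL.

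Genes listed for OECs of both ONL and mucosa were mostly higher in the ONL too, by smaller factors. Ptprz1, a receptor phosphatase gene, read 168, 165, 118, 122 and 129 CPM in the ONL and 19.1, 22.5 and 30.9 CPM in the nerve (2.59 ± 0.17 SE, adjusted p = 1.2e-12). Hey2, a Notch effector, and Nell2, a secreted guidance factor, gave log2 fold changes of 2.49 ± 0.24 SE, adjusted p = 1.2e-09 and 2.22 ± 0.24 SE, adjusted p = 1.1e-08, both without overlap. Adgrg1, an adhesion G protein-coupled receptor gene (1.35 ± 0.22 SE, adjusted p = 1.2e-05), Dpysl3, a cytoskeletal phosphoprotein gene of axons and glia (0.77 ± 0.15 SE, adjusted p = 0.00012), and Sema6a, a transmembrane semaphorin gene (0.78 ± 0.13 SE, adjusted p = 2.3e-05), were higher in every ONL library than in any nerve library. Heyl (1.14 ± 0.22 SE, adjusted p = 0.00015) overlapped in the libraries. Frzb, the one gene placed in ONL OECs and some mucosal OECs, which encodes a secreted Wnt antagonist, was higher (0.86 ± 0.20 SE, adjusted p = 0.0013) with overlap. Ptn, the gene of the growth factor pleiotrophin, was not called (0.31 ± 0.16 SE, adjusted p = 0.15). Relative to Sox10 the differences came to 1.31 for Ptprz1, 1.19 for Hey2 and 0.96 for Nell2. They were 0.06 for Adgrg1, -0.15 for Heyl, -0.39 for Frzb, -0.48 for Dpysl3, -0.48 for Sema6a and -0.95 for Ptn, near 0 or below it. At about this stage the study also saw Ptn in nasal mesenchyme and Dpysl3 in Sox10-negative cells on the nerve.

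Genes shared by mucosal OECs and Schwann cells went both ways, while most genes of all OECs and Schwann cells, Sox10 among them, were higher in the ONL. Hes1 (-1.52 ± 0.35 SE, adjusted p = 0.00093) and Sostdc1, a secreted antagonist of BMP and Wnt signaling (-2.95 ± 0.70 SE, adjusted p = 0.0015), were lower in the ONL. Sema3b (-0.56 ± 0.33 SE, adjusted p = 0.23) was not called, and Sfrp5, a secreted Wnt antagonist, was higher (1.08 ± 0.37 SE, adjusted p = 0.024). Both Sfrp5 (3.02 to 12.4 CPM in the ONL, 1.21 to 5.39 CPM in the nerve) and Sostdc1 (0 to 1.94 and 1.64 to 9 CPM) were low. By in situ hybridization at about E13.5 the study found Sfrp5 in mucosal OECs but not in ONL OECs, and no OEC signal for Sostdc1. Which cells gave the counts of these genes was not tested. Leaving out 1 library moved the log2 fold change to -3.86 without ONL library 5 for Sostdc1. The call for Sfrp5 was lost without either of ONL libraries 4 and 5 (log2 fold change 0.71 to 1.02, adjusted p 0.052 to 0.18). Mmd2, a membrane receptor-like gene (2.30 ± 0.27 SE, adjusted p = 4.4e-08), Cntn1, an axonal and glial adhesion gene (1.77 ± 0.29 SE, adjusted p = 1.8e-05), Fyn, a Src-family kinase gene (1.34 ± 0.19 SE, adjusted p = 1.9e-06), and Sox5, a SoxD factor gene (0.87 ± 0.24 SE, adjusted p = 0.0063), were higher, and Zbtb20, a zinc finger factor gene, was not called (0.16 ± 0.17 SE, adjusted p = 0.51). Relative to Sox10 the differences came to 1.03 for Mmd2, 0.42 for Cntn1, 0.15 for Fyn and -0.36 for Sox5.

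The wider set of glial markers moved unevenly. Among 9 markers of neural crest-derived glia, 5 were higher in the ONL, Sox10, Fabp7, Erbb3 and Foxd3 among them, S100b was lower and 3 were not called. The median was 0.79 against -0.03 over all genes, where 15.4% were higher and 16.1% lower. Under the labels the counts were 2 higher and 2 lower. Fabp7, which encodes the brain-type fatty acid binding protein of radial glia and immature peripheral glia, dominated the sum of these markers. It read 4021, 3906, 6006, 5225 and 5902 CPM in the ONL and 293, 421 and 769 CPM in the nerve (3.46 ± 0.24 SE, adjusted p = 2.7e-12), and its ratio to Sox10 differed by 2.23. S100b, a calcium-binding protein gene of maturing glia, read 9.68, 4.54, 9.75, 9.03 and 15.1 CPM in the ONL and 17.3 and 32 CPM at the median and highest of the nerve (-1.08 ± 0.31 SE, adjusted p = 0.0074), with overlap. Of 16 astrocyte-type genes, 5 were higher and 4 lower, with a median of -0.09, and under the labels 1 was higher and 4 were lower. Slc1a2 (4.39 ± 0.50 SE, adjusted p = 4.1e-08) and Slc1a3 (2.36 ± 0.30 SE, adjusted p = 3.1e-07), the glutamate transporter genes, and Glul, the glutamine synthetase gene (1.43 ± 0.16 SE, adjusted p = 4.5e-08), were higher without overlap. Slc1a2 stood at 95.2, 76.5, 46.4, 48.1 and 52.9 CPM in the ONL and at most 5.04 CPM in the nerve. Of 12 myelin genes 3 were higher and 3 lower, with a median of -0.01, and under the labels 3 were lower and none higher. Pmp22, the peripheral myelin protein gene, was lower (-1.28 ± 0.15 SE, adjusted p = 7.4e-08), and Mbp, the myelin basic protein gene (-0.54 ± 0.19 SE, adjusted p = 0.027). The call for Mbp was lost without any 1 of ONL libraries 2, 3 and 5 or either of nerve libraries 1 and 5 (log2 fold change -0.51 to -0.46, adjusted p 0.051 to 0.086).

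Since the pieces held other cells as well, markers of those cells are given beside the glial results. The markers of telencephalic neurons were high in the same libraries as Npy and Prss56, and their part in the glial differences was not tested. The summed level of 12 markers of bulb and cortical projection neurons was 1029.8 to 1384 CPM in the ONL libraries and 96.4 to 183 CPM in the nerve libraries.

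**Figure D3:**
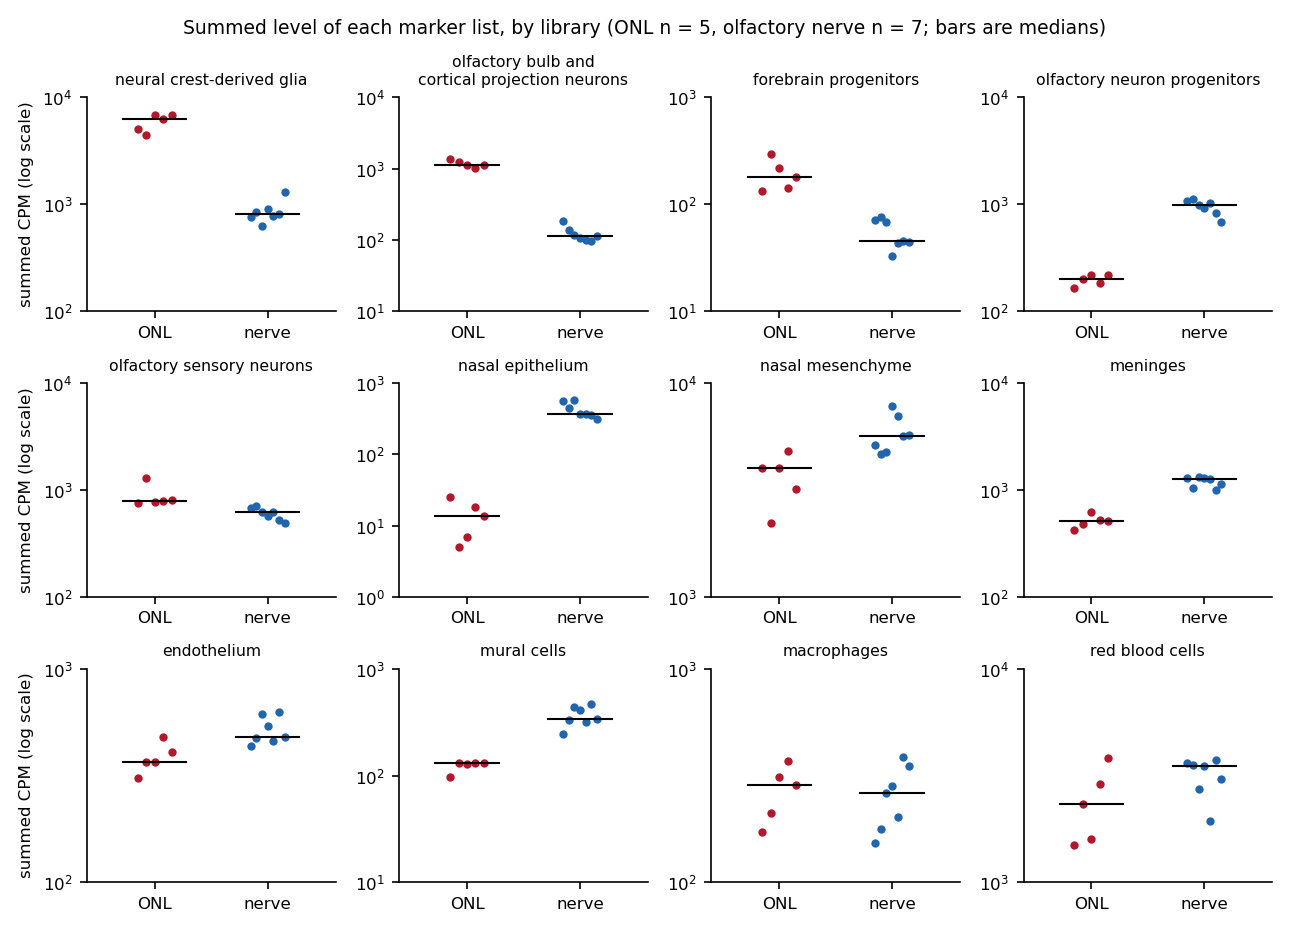
Summed CPM of 12 marker lists (panels, log y axis) in each of 5 ONL libraries (red) and 7 nerve libraries (blue), with a bar at the median. Lists of bulb and cortical neurons and of forebrain progenitors lie higher in the ONL, lists of nasal epithelium, olfactory neuron progenitors and mural cells lie lower, and macrophage and red cell lists overlap.

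Of those 12 markers of projection neurons, 10 were higher in the ONL and none lower, with a median log2 fold change of 3.56. Over all genes 15.4% were higher and 16.1% lower. Neurod6, a bHLH factor of pyramidal neurons, read 397, 206, 232, 242 and 249.9 CPM in the ONL and 0.252 to 2.08 CPM in the nerve (8.15 ± 0.69 SE, adjusted p = 8.2e-10), and Neurod2, its relative, was higher (8.44 ± 0.71 SE, adjusted p = 8.2e-10). Of 10 markers of forebrain progenitors 6 were higher and none lower (median 2.78). Emx1, a homeobox gene of the dorsal telencephalon, was higher (5.74 ± 0.65 SE, adjusted p = 5.2e-08), as was Hopx (2.73 ± 0.28 SE, adjusted p = 4.5e-09), while Emx2 was not called (0.48 ± 0.25 SE, adjusted p = 0.15). Of 8 markers of GABAergic interneurons 5 were higher and 1 lower (median 3.82). Their summed level overlapped all the same, at 19.6 to 49.7 CPM in the ONL and 18.8 to 51.3 CPM in the nerve. Gad1, a glutamate decarboxylase gene, was higher (4.72 ± 0.81 SE, adjusted p = 2.6e-05), Gad2 was not called (-0.78 ± 0.52 SE, adjusted p = 0.28), and Sp8, a zinc finger factor of olfactory placode and interneuron precursors, was lower (-1.70 ± 0.40 SE, adjusted p = 0.0012). A single library moved the log2 fold change to 9.39 without nerve library 7 for Neurod2, 6.35 without nerve library 1 for Emx1 and 5.60 without nerve library 5 for Gad1. The call for Emx2 was gained without nerve library 2 (log2 fold change 0.64, adjusted p 0.047). Under the labels these 3 lists held 0 higher genes and 4, 2 and 1 lower ones.

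Genes of synapses and of transmitter receptors followed the projection neurons. Of 16 genes of synaptic vesicles and release, 14 were higher in the ONL, against 15.4% of all genes, and none lower, with a median of 2.15. Syt1, the calcium sensor synaptotagmin 1, read 522, 361, 198, 197 and 169 CPM in the ONL and 19.9, 21.4 and 43.7 CPM in the nerve (3.52 ± 0.43 SE, adjusted p = 1.3e-07). Syn1 (2.94 ± 0.29 SE, adjusted p = 2.5e-09), Sv2a (2.50 ± 0.34 SE, adjusted p = 7.4e-07) and Sv2b (3.47 ± 0.49 SE, adjusted p = 1.5e-06), genes of vesicle proteins, were higher without overlap, and Syn2 was not called (0.09 ± 0.35 SE, adjusted p = 0.89). Among 18 subunits of glutamate and GABA receptors 11 were higher and 2 lower (median 3.00). Gria2, the AMPA receptor subunit, read 235, 128, 121, 97.4 and 112 CPM in the ONL and at most 9.26 CPM in the nerve (4.84 ± 0.48 SE, adjusted p = 2.3e-09). Gria1 was higher too (2.84 ± 0.60 SE, adjusted p = 0.00041). Of the 11 neuropeptide genes tested 7 were higher and 1 lower, and the higher ones included Tac1, the substance P precursor gene (2.50 ± 0.53 SE, adjusted p = 0.00042). Under the labels 1 gene of the vesicle list was higher and 1 lower, 0 and 3 of the receptor list and 4 and 2 of the neuropeptide list.

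Meningeal markers split. Of 8 such genes 4 were higher in the ONL and 3 lower, against 15.4% and 16.1% of all genes. The median of 2.69 hides both directions, and under the labels 1 was higher and none lower. Zic1, a zinc finger factor of meninges and dorsal neural tissue, read 135, 147, 237, 153 and 167 CPM in the ONL and 0.126, 0.52 and 2.57 CPM in the nerve (7.52 ± 0.53 SE, adjusted p = 2.8e-12). Tbx18, a T-box factor of meninges and pericytes, read 29.6, 28.6, 31, 29.5 and 21 CPM in the ONL and at most 1.83 CPM in the nerve (4.78 ± 0.42 SE, adjusted p = 3.1e-10). Slc6a13, a GABA and taurine transporter gene of the arachnoid, was higher (5.51 ± 0.62 SE, adjusted p = 2.8e-08). Foxc1, a forkhead factor of meninges and cranial mesenchyme, was lower (-0.71 ± 0.27 SE, adjusted p = 0.042). The call for Foxc1 was lost without any 1 of ONL libraries 1, 2, 4 and 5 or any 1 of nerve libraries 2, 4, 5, 6 and 7 (log2 fold change -0.74 to -0.63, adjusted p 0.05 to 0.11). Aldh1a2 and Crabp2 are described with retinoic acid.

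In the nerve, genes of the olfactory epithelium and its neurons stood out. All 8 markers of olfactory neuron progenitors were lower in the ONL, with a median of -2.99, against 16.1% of all genes. DESeq2 called 7 of them, 7 were lower without ONL library 1 and 6 without the 2 libraries of lowest depth. With the label number as a block all 8 were lower. Fezf1, a zinc finger factor of the olfactory placode, read 60.9, 116 and 155 CPM at the lowest, median and highest of the nerve libraries and 1.11, 1.3, 0.78, 0.104 and 0.251 CPM in the ONL. Neurog1, a proneural bHLH gene, was lower (-6.05 ± 0.85 SE, adjusted p = 1.4e-06). The log2 fold change was -8.50 without ONL library 2 for Neurog1. Of 10 markers of olfactory sensory neurons, 7 were lower and 1 was higher (median -2.81). Gng8, a G protein subunit gene of immature sensory neurons, read 57, 67.1 and 84.7 CPM in the nerve and 6.09, 4.03, 5.92, 8.2 and 5.59 CPM in the ONL (-3.56 ± 0.23 SE, adjusted p = 5.1e-13). Omp, the olfactory marker protein gene of mature neurons, was low at this stage, at 5.89 to 14.1 CPM in the nerve and no more than 1.11 CPM in the ONL (-4.03 ± 0.58 SE, adjusted p = 1.9e-06). Rtp1, a receptor transport gene, was lower (-4.80 ± 0.76 SE, adjusted p = 8.3e-06), and Cnga2, the cyclic nucleotide-gated channel gene, held 3 counts in the ONL, all in ONL library 1, a nerve-to-ONL ratio of 260.0 (95% counting interval 88.7 to 1263). Leaving out 1 library moved the log2 fold change to -5.78 without ONL library 4 for Rtp1. Gap43, a growth cone gene of any growing axon, was the member that was higher, at 699, 1141, 645, 703 and 709.5 CPM against 263 to 375 CPM (1.28 ± 0.30 SE, adjusted p = 0.0011). Under the labels 4 of the 8 progenitor markers were lower and none higher, and 2 and 1 of the 10 sensory neuron markers.

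Epithelial genes were close to absent from the ONL. Of 11 markers of nasal epithelium 9 were lower, against 16.1% of all genes, and none higher, with a median of -5.22. Their summed level was 4.97 to 24.9 CPM in the ONL and 309.9 to 585 CPM in the nerve. Epcam, the epithelial adhesion molecule gene, read 67, 103 and 206 CPM in the nerve and 5.81, 2.95, 4.03, 6.02 and 9.31 CPM in the ONL (-4.33 ± 0.36 SE, adjusted p = 9.3e-11). Cdh1, the E-cadherin gene, was lower (-6.28 ± 0.92 SE, adjusted p = 2.6e-06) and Rab25, an epithelial trafficking gene (-5.48 ± 0.61 SE, adjusted p = 2.5e-08). A single library moved the log2 fold change to -6.88 without ONL library 1, -7.48 without ONL library 2 and -5.68 without ONL library 5 for Cdh1. Under the labels none of the 11 was called.

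Most of the called markers of mesenchyme, matrix and vessel walls were also lower in the ONL, with exceptions given below. Of 15 markers of nasal mesenchyme 9 were lower in the ONL and 2 were higher (median -0.92), against 16.1% and 15.4% of all genes. Under the labels 2 were lower and 1 higher. Osr2, an odd-skipped factor of craniofacial mesenchyme, read 38, 90.8 and 105 CPM in the nerve and 1.94, 0.792, 2.08, 1.66 and 4.34 CPM in the ONL (-5.11 ± 0.45 SE, adjusted p = 2.8e-10). Prrx1 (-2.81 ± 0.25 SE, adjusted p = 3.1e-10) and Alx1 (-2.47 ± 0.39 SE, adjusted p = 6.9e-06), homeobox genes of craniofacial mesenchyme, were lower without overlap, as was the collagen I chain gene Col1a2 (-0.75 ± 0.18 SE, adjusted p = 0.0016), while Col1a1 was not called (-0.43 ± 0.28 SE, adjusted p = 0.26). The genes of the small proteoglycans lumican and decorin ran against the rest. Lum read 349, 174, 476, 452 and 282 CPM in the ONL and 18.8, 60.4 and 208 CPM in the nerve (2.30 ± 0.36 SE, adjusted p = 8.4e-06), and Dcn read 278, 85.4, 357, 264 and 284 CPM and 17.1, 48 and 283 CPM (1.60 ± 0.45 SE, adjusted p = 0.006). Nerve library 1 held the most of both and overlapped the ONL. The log2 fold change was 2.34 without nerve library 1 for Dcn. Of 20 collagen and matrix genes 10 were lower and 3 higher (median -0.57), with Eln, the elastin gene, lower (-4.62 ± 0.40 SE, adjusted p = 2.1e-10) and Fbn2, the fibrillin 2 gene (-1.42 ± 0.15 SE, adjusted p = 1.3e-08). Of 17 basement membrane genes 9 were lower and 2 higher (median -0.54), with Col4a1 (-1.15 ± 0.19 SE, adjusted p = 2.3e-05), Col4a2 (-1.20 ± 0.16 SE, adjusted p = 5.7e-07) and Lama2 (-1.47 ± 0.23 SE, adjusted p = 6.7e-06) lower and Lama1, a laminin chain gene of early and pial basement membranes, higher (1.16 ± 0.23 SE, adjusted p = 0.00015). Under the labels the matrix list had 11 lower genes and the basement membrane list 2, with none higher in either.

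Of 8 mural cell markers 6 were lower in the ONL and none higher (median -1.42), and under the labels 5 were lower. Pdgfrb, the receptor gene of pericytes and mesenchyme, was lower (-2.28 ± 0.20 SE, adjusted p = 3e-10), Abcc9, a channel subunit gene of pericytes (-1.60 ± 0.30 SE, adjusted p = 0.00011), and Cspg4, the NG2 proteoglycan gene (-1.24 ± 0.37 SE, adjusted p = 0.01). Acta2, the smooth muscle actin gene, read 0, 0, 0.39, 6.64 and 3.08 CPM in the ONL and 13.8 to 81.8 CPM in the nerve (-4.25 ± 0.94 SE, adjusted p = 0.00063), and the pericyte gene Rgs5 was not called (-0.07 ± 0.31 SE, adjusted p = 0.9). Of 10 endothelial markers 2 were lower and none higher (median -0.40), against 16.1% of all genes. DESeq2 called 5 of the 10, 5 had an unadjusted p under 0.05 in edgeR, and under the labels 7 were lower. The genes called in edgeR were Emcn, the endomucin gene (-1.56 ± 0.30 SE, adjusted p = 0.00014), and Pecam1 (-1.08 ± 0.35 SE, adjusted p = 0.019), while Cdh5 was not called (-0.79 ± 0.32 SE, adjusted p = 0.056). Leaving out 1 library moved the log2 fold change to -5.05 without ONL library 4 for Acta2. The call for Pecam1 was lost without either of ONL libraries 2 and 5 (log2 fold change -1.01 to -0.99, adjusted p 0.05 to 0.054). The call for Cdh5 was gained without ONL library 4 or nerve library 5 (log2 fold change -0.89 to -0.85, adjusted p 0.048 to 0.05). Of 10 cartilage and bone markers 5 were lower and none higher (median -1.14), and under the labels 3 were lower and 1 higher. Col2a1, the cartilage collagen gene, was lower (-1.24 ± 0.35 SE, adjusted p = 0.0059), Sox9, its regulator (-1.14 ± 0.34 SE, adjusted p = 0.0095), and Alpl, the alkaline phosphatase gene (-2.55 ± 0.24 SE, adjusted p = 1.4e-09).

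Retinoic acid is made from vitamin A by retinaldehyde dehydrogenases, is bound in cells by Crabp proteins and is broken down by Cyp26 enzymes. Of 12 genes of this pathway 10 were lower in the ONL, against 16.1% of all genes, and none higher (median -1.29). Aldh1a2 (chr9:71215789-71296243), which encodes the main embryonic synthesising enzyme, read 625, 769 and 944 CPM in the nerve and 36.2, 10.9, 31.5, 59.4 and 46.1 CPM in the ONL (-4.40 ± 0.43 SE, adjusted p = 1.9e-09). The highest ONL library lay far below the lowest nerve library. Aldh1a3 (-2.24 ± 0.40 SE, adjusted p = 5e-05), Crabp2 (-1.31 ± 0.25 SE, adjusted p = 9.9e-05) and Dhrs3, a retinaldehyde reductase gene (-1.26 ± 0.22 SE, adjusted p = 2.6e-05), were lower, and Aldh1a1 was not called (-0.17 ± 0.72 SE, adjusted p = 0.9). Under the labels 1 of the 12 was lower and 2 were higher.

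**Figure D4:**
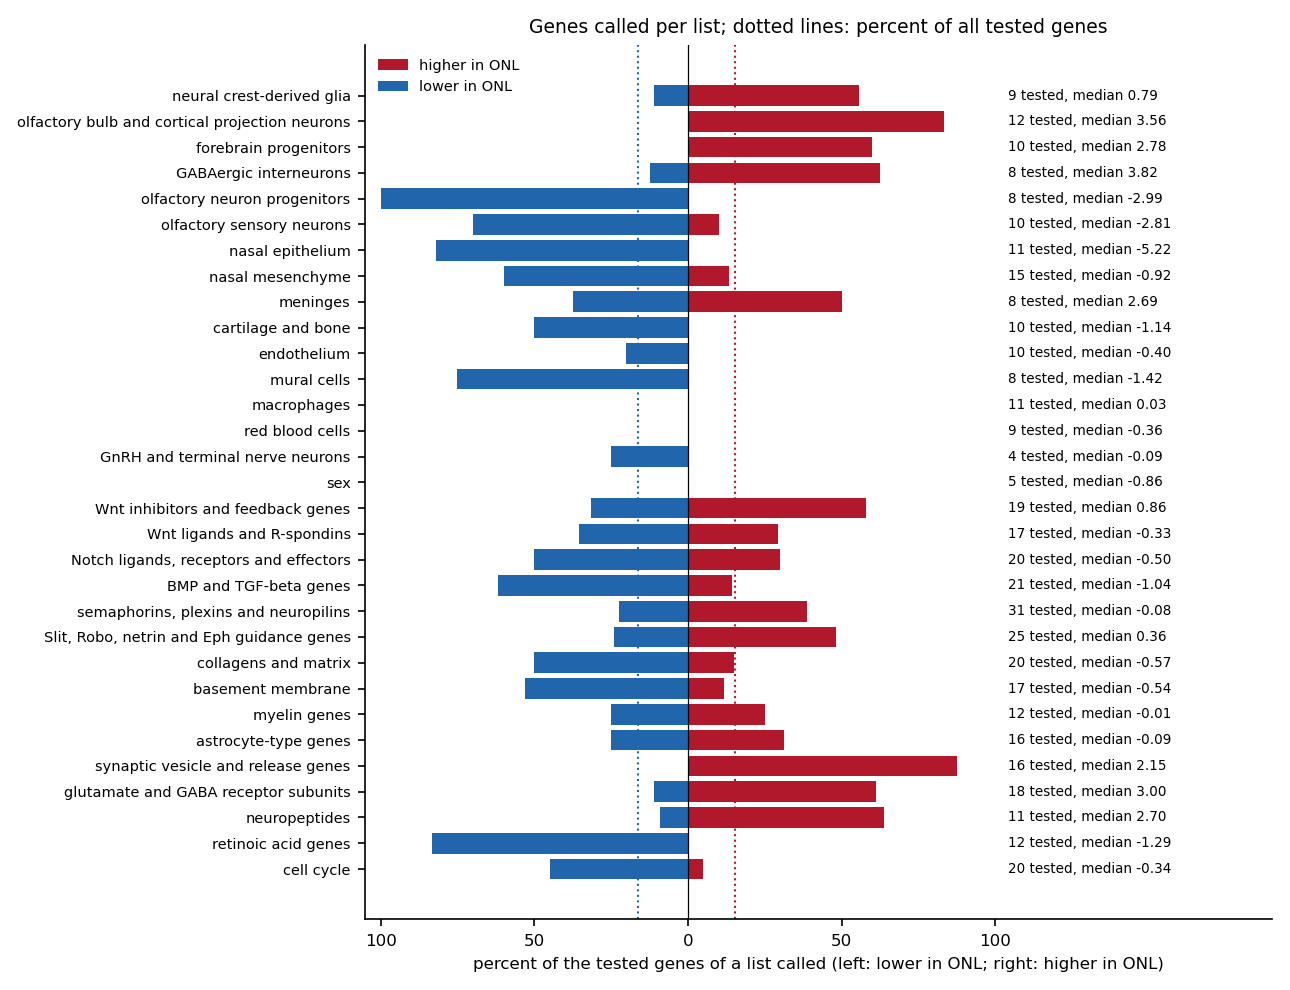
Share of the tested genes of each list (rows) that were called higher (red, to the right) or lower (blue, to the left) in the ONL, in percent, with the number tested and the median log2 fold change at the right. Dotted lines mark the shares over all genes, 15.4% higher and 16.1% lower, so that bars near them stand at the background.

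Notch signaling lets neighbouring cells talk through membrane ligands, and the cleaved receptor acts with the DNA-binding protein Rbpj to turn on repressors of the Hes and Hey families. The effectors did not move together. Of 20 Notch genes 6 were higher in the ONL and 10 lower (median -0.50), against 15.4% and 16.1% of all genes. Hey2 read 181, 85.9, 160.0, 201 and 185 CPM in the ONL and 20.9, 27 and 37.9 CPM in the nerve. Hey1 ran the other way, at 24.6, 28.2, 20.5, 34.1 and 28.8 CPM in the ONL against 109, 168 and 213 CPM in the nerve (-2.56 ± 0.17 SE, adjusted p = 1.7e-12), and neither gene overlapped between groups. Hes5 was higher and Hes1 lower, with the values given above and overlap in both, since Hes1 read 4.7, 12.8, 21.2, 9.24 and 28 CPM in the ONL and 26.2 to 78.5 CPM in the nerve. Among ligands Dll1 was higher (2.03 ± 0.33 SE, adjusted p = 1.4e-05), and Dll3 was higher (1.08 ± 0.38 SE, adjusted p = 0.03). The call for Dll3 was lost without any 1 of ONL libraries 2, 3 and 5 or either of nerve libraries 2 and 4 (log2 fold change 0.94 to 1.04, adjusted p 0.057 to 0.081). Mfng, a glycosyltransferase gene that modifies Notch receptors, was lower (-2.34 ± 0.37 SE, adjusted p = 8.4e-06). Under the labels 1 Notch gene was higher and 6 were lower, with Hey2 at -2.07 and Hey1 at -0.01.

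The promoters of both effectors that were higher and have an entry in the reference hold the letters GTGGGAA, a core that Rbpj is known to bind, and they are shown here with each match in capitals. They are the 250 bases before the start site from RefSeq (GRCm38.p6), 5′ to 3′ on the strand of the gene, and Hes1, Hey1 and Heyl have no entry there. The search covered both strands, so a match on the other strand reads TTCCCAC, and 5.42% of 32851 promoters of the same length hold at least 1 match. Hes5 is on the plus strand at chr4:154960673-154960922, with matches that begin 226 and 83 bases before the start, and Hey2 on the minus strand at chr10:30842784-30843033, with 1 match that begins 207 bases before it. A match describes the sequence and is not a site of binding measured in these tissues.
Hes5: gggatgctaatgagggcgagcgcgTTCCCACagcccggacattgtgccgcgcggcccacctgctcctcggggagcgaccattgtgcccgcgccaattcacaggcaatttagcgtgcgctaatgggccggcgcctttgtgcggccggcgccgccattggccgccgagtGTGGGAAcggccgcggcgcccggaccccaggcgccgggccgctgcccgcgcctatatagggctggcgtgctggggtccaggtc
Hey2: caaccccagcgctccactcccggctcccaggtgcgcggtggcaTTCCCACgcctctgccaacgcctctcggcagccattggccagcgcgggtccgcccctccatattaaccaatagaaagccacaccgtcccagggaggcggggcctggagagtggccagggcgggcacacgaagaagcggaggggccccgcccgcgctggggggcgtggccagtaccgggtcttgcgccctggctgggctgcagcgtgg

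Wnt signaling is read through secreted ligands, secreted antagonists and feedback genes that the pathway itself turns on. Of 19 inhibitors and feedback genes tested, 11 were higher in the ONL and 6 lower (median 0.86), with secreted antagonists in both directions. Over all genes 15.4% were higher and 16.1% lower. Beside Wif1, Frzb, Lypd6 and Sfrp5, the higher genes included Lef1, a DNA-binding effector and target of the pathway, at 26.3, 26.8, 28.7, 25 and 33 CPM in the ONL and 2.51, 3.29 and 4.79 CPM in the nerve (2.96 ± 0.18 SE, adjusted p = 3.2e-13). Apcdd1, a membrane-bound inhibitor and target, read 44.8, 47.1, 41.8, 46.9 and 50.4 CPM in the ONL and 2.94 to 6.58 CPM in the nerve (3.34 ± 0.25 SE, adjusted p = 8.5e-12). The ONL libraries agreed closely for both genes, and neither overlapped the nerve. The lower genes included Sfrp2, a secreted frizzled-related protein gene, at 6.92, 12, 6.24, 12 and 14.9 CPM in the ONL and 67.8 to 264 CPM in the nerve (-3.53 ± 0.42 SE, adjusted p = 7e-08), together with Nkd2 and Sostdc1. Of 17 ligand and R-spondin genes tested 5 were higher and 6 lower, and under the labels 1 was higher and 4 were lower. Wnt7a had no count in any nerve library and 16.9, 31.3, 8.78, 11.6 and 15.1 CPM in the ONL, at least 507-fold higher when 3 counts are taken as the floor over all nerve libraries. Wnt7b was higher (5.12 ± 0.58 SE, adjusted p = 3e-08), while Wnt5a (-2.70 ± 0.24 SE, adjusted p = 2.6e-10) and Rspo3 (-2.71 ± 0.47 SE, adjusted p = 3.4e-05) were lower without overlap. Wnt2 was not called (-1.96 ± 0.99 SE, adjusted p = 0.14), and Wnt1, with 1 count in the ONL and 6 counts in the nerve, was not tested. The call for Wnt2 was gained without ONL library 5 (log2 fold change -5.31, adjusted p 0.039). Under the labels 1 of the 19 inhibitors was higher and 7 were lower. Without ONL library 1, 9 of these 19 were higher and 6 lower, and with the label number as a block 7 and 7.

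**Figure D5:**
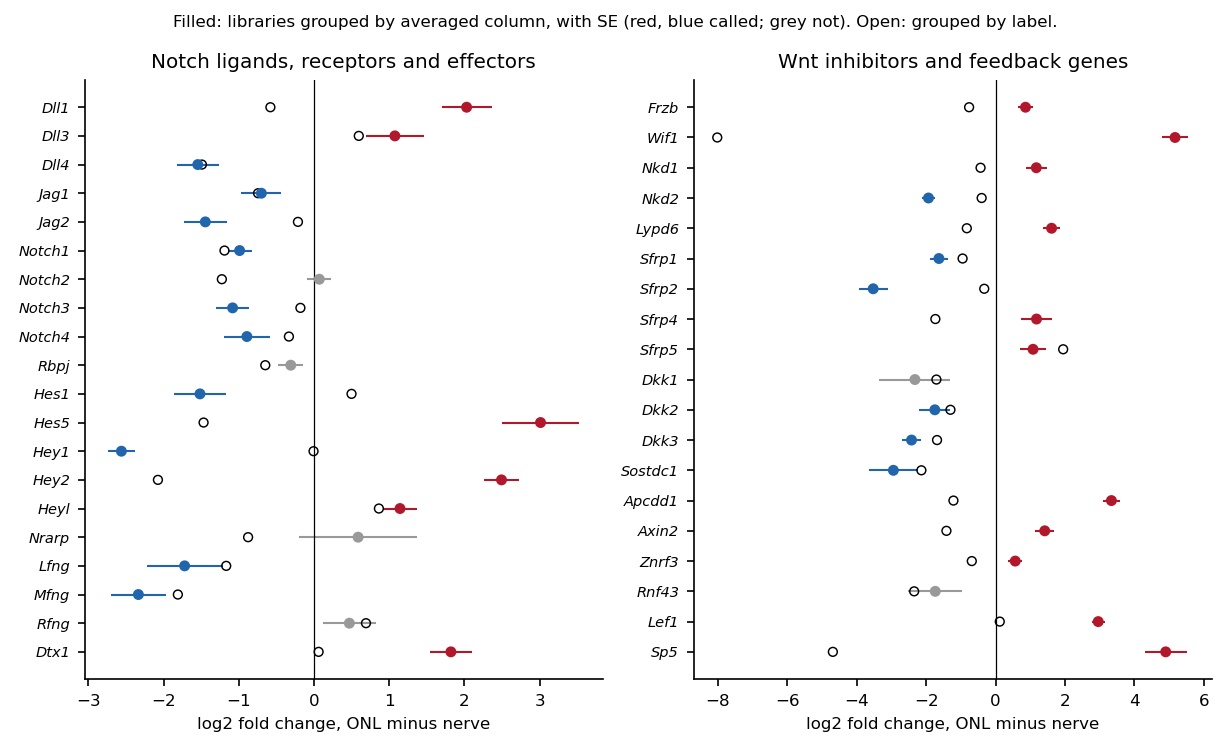
Log2 fold change, ONL minus nerve (x axis), of the 20 Notch genes (left) and 19 Wnt inhibitors and feedback genes (right); filled points with SE bars are the averaged groups (red and blue called, grey not called) and open points the groups as labelled. Hes5, Hey2, Heyl and Hes1, Hey1 lie on opposite sides of 0, and Wif1 and Lef1 lie to the right, with Wif1 far to the left under the labels.

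BMP and TGF-beta genes were mostly lower in the ONL. Of 21 such genes 13 were lower and 3 higher (median -1.04), against 16.1% and 15.4% of all genes. Bmp2 (-2.94 ± 0.51 SE, adjusted p = 3.8e-05) and Bmp3 (-2.30 ± 0.37 SE, adjusted p = 1.1e-05), ligand genes, were lower without overlap, as was Gdf10 (-2.36 ± 0.46 SE, adjusted p = 0.00015), and Bmper, an extracellular BMP modulator gene, was lower (-3.85 ± 0.57 SE, adjusted p = 3.2e-06) with overlap. A single library moved the log2 fold change to -4.46 without ONL library 4 for Bmper. Under the labels 5 were lower and 1 higher.

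Guidance genes, which steer axons and migrating cells, were called in both directions. Of 31 semaphorins, plexins and neuropilins 12 were higher in the ONL and 7 lower (median -0.08), against 15.4% and 16.1% of all genes. Sema3e read 38.2, 13.2, 18.5, 23.8 and 15.7 CPM in the ONL and 1.26, 3.89 and 5.33 CPM in the nerve (2.61 ± 0.33 SE, adjusted p = 2e-07). Sema4a (1.80 ± 0.27 SE, adjusted p = 3.9e-06) and Sema6c (1.48 ± 0.30 SE, adjusted p = 0.00026) were higher too, and the secreted repellents Sema3a (-1.08 ± 0.33 SE, adjusted p = 0.012) and Sema3f (-1.48 ± 0.25 SE, adjusted p = 2.8e-05) were lower. Of 25 Slit, Robo, netrin and Eph genes 12 were higher and 6 lower (median 0.36). Efnb2, the ephrin B2 gene, read 126, 215, 202, 129.8 and 126 CPM in the ONL and 20.2 to 31.6 CPM in the nerve (2.59 ± 0.18 SE, adjusted p = 2.1e-12). Dcc, the netrin receptor gene (3.89 ± 0.34 SE, adjusted p = 2.3e-10), Epha3 (3.65 ± 0.42 SE, adjusted p = 4.5e-08) and Epha5 (2.26 ± 0.29 SE, adjusted p = 3.2e-07) were higher without overlap. The Slit genes differed from each other, since Slit2 was lower (-1.60 ± 0.28 SE, adjusted p = 3e-05) and Slit1 higher (1.61 ± 0.57 SE, adjusted p = 0.028). The call for Slit1 was lost without either of ONL libraries 2 and 5 or any 1 of nerve libraries 2, 4 and 6 (log2 fold change 1.26 to 1.59, adjusted p 0.051 to 0.12). Under the labels the semaphorin list had 5 higher and 7 lower genes and the Slit and Eph list 4 higher and 2 lower.

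Of 20 cell cycle genes 9 were lower in the ONL and 1 was higher, with a median of -0.34 against -0.03 over all genes, where 16.1% were lower. With the label number as a block, 1 of the 20 was lower and 1 higher. Under the labels 2 were lower and 1 higher. Mki67 was not called (-0.30 ± 0.18 SE, adjusted p = 0.22), Top2a was lower (-0.66 ± 0.14 SE, adjusted p = 0.00052) and Ccnb1 (-0.65 ± 0.19 SE, adjusted p = 0.0082). The D cyclins moved in opposite directions. Ccnd1 read 61.4, 80.1, 73.2, 86.2 and 66.2 CPM in the ONL and 108 to 289 CPM in the nerve (-1.32 ± 0.17 SE, adjusted p = 2.2e-07), and Ccnd2 read 1371, 1314, 1676, 1922 and 1772 CPM and 544 to 750.0 CPM (1.29 ± 0.14 SE, adjusted p = 2.3e-08), both without overlap.

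Some cell types did not separate the pieces. None of 11 macrophage markers was called, against 31.5% of all genes (median 0.03), with Ptprc at 0.11 ± 0.43 SE, adjusted p = 0.89 and Aif1 at -0.43 ± 0.38 SE, adjusted p = 0.44. Their summed level was 172 to 369 CPM in the ONL and 153 to 385 CPM in the nerve. None of 9 red cell genes was called either (median -0.36), with Hba-a1 at -0.61 ± 0.39 SE, adjusted p = 0.26 and Hba-a2 at 0.30 ± 0.61 SE, adjusted p = 0.77. No macrophage gene and 1 red cell gene had an unadjusted p under 0.05 in edgeR, and DESeq2 called none of either list. Under the labels none of the macrophage genes was called, and 3 red cell genes were higher and 1 lower. None of the 5 sex-linked genes was called in either grouping, with Xist at 1.24 ± 1.89 SE, adjusted p = 0.68 and Ddx3y at -1.24 ± 1.72 SE, adjusted p = 0.65. Without ONL library 1, the one ONL library rich in Ddx3y, that gene was called lower (adjusted p = 0.017), as were 4 of the 5 sex-linked genes in all, and 3 of them without the 2 libraries of lowest depth. GnRH neurons, which migrate along the nerve into the forebrain, were captured unevenly in both groups. Gnrh1 read 318, 1.66, 2.86, 65 and 69.2 CPM in the ONL and 0.325, 3.99 and 349.7 CPM in the nerve (-0.02 ± 1.21 SE, adjusted p = 0.99), so that each group held libraries almost without it and libraries rich in it. Of 4 genes of GnRH and terminal nerve neurons 1 was lower in the ONL and none higher, and under the labels none was called. Isl1, a LIM factor gene of migrating neurons, was high in the same ONL library as Gnrh1, at 27.9, 0.648, 0.195, 10.2 and 3.91 CPM (-0.16 ± 0.99 SE, adjusted p = 0.93). Prph, the peripherin gene of peripheral neurons, was lower in the ONL without overlap, at 2.77, 1.01, 1.43, 4.78 and 1.72 CPM against 29.1 to 80.7 CPM (-4.36 ± 0.41 SE, adjusted p = 1e-09).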

How the data were processed

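The authors sequenced the RNA of 31 microdissected pieces and deposited 1 table of raw read counts per gene and library. The submitters' processing notes name TopHat2 2.1.0, HTSeq, FastQC, DESeq2 3.7 and mm10, and the study's methods give Ensembl as the source of that genome. Symbols, exon lengths and positions were taken from GENCODE M21 (GRCm38), and 47224 of the 47729 gene IDs matched. A row without an ID was left out. No column was unused. The counts hold no library of unknown sample, and no 2 libraries of the same compared group, over 31 pairs, agreed within sampling noise.

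The 12 libraries were grouped as in the study's table of group means, which was used only to find which libraries were averaged. All 31 libraries were fitted in 7 groups with edgeR 4.0.16 (TMM scaling, glmQLFit and glmQLFTest, limma 3.58.1, R 4.3.3), after edgeR's filterByExpr, and p-values were adjusted over all 19332 genes with the Benjamini-Hochberg method. The fit leaves 24 residual degrees of freedom. The SE is the absolute log2 fold change divided by the square root of the test's F. CPM values use the TMM-scaled library sizes. DESeq2 1.42.0, other scalings, filters, samples and groupings were run as alternatives. At 0 counts a group is given a floor of 3 counts, and ratios with 1 to 3 counts carry an exact interval at 95%. Floors and intervals cover counting error only.

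Some genes are not reported here. The other named genes were every gene of the study's OEC list, up to 12 rises and 12 falls (called, at least 50 CPM in the higher group, libraries not overlapping), and in each of 31 lists the first 2 genes and up to 4 called members with the largest change at 10 CPM or more. Members, lists and comparisons were chosen with earlier results of these data known. HTSeq counts of near-identical gene copies, such as Hba-a1 and Hba-a2 or odorant receptors, can be lost or split between copies.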

Additional observations from a re-analysis of the deposited data

Results flagged for a closer look

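In 34 of 314 checks of the named genes, 1 library of the 5 or 7 lay apart from its group (its gap to the nearest library, as a share of the range, passed Dixon's 95% critical value). Chance gives about 1 in 20 such groups, and genes read in 1 library are not independent. ONL library 1 stood above the others of its group for Cntn1 (102 CPM against 25.6 to 39.4), Gabra2 (110.4 CPM against 36.9 to 55.5), Neurod6 (397 CPM against 206 to 249.9), Gnrh1 (318 CPM against 1.66 to 69.2), Ddx3y (138 CPM against 0 to 0), Epha3 (222 CPM against 73.9 to 98.7), Sv2b (177 CPM against 55.6 to 77.7) and Gria2 (235 CPM against 97.4 to 128). Nerve library 1 stood above the others of its group for Vtn (11.3 CPM against 0 to 1.96), Emx1 (1.29 CPM against 0.074 to 0.52), Lum (208 CPM against 18.8 to 68.1), Dcn (283 CPM against 17.1 to 89.4), Aldh1a1 (3.04 CPM against 0.28 to 1.45), Aldh1a3 (247 CPM against 89.3 to 148) and Crabp2 (558 CPM against 249 to 371). ONL library 2 stood above the others of its group for Adgrg1 (127 CPM against 60.8 to 68.3), Sp8 (10.9 CPM against 3.9 to 5.19), Neurog1 (2.45 CPM against 0 to 0.277) and Gap43 (1141 CPM against 645 to 709.5). Nerve library 3 stood above the others of its group for Prph (80.7 CPM against 29.1 to 51), Dll3 (3.85 CPM against 0.52 to 1.81) and Glul (45.9 CPM against 36.8 to 40.4). Nerve library 5 stood above the others of its group for Gad1 (1.33 CPM against 0 to 0.351) and Omp (14.1 CPM against 5.89 to 8.32). Nerve library 5 stood below the others for Hba-a2 (0.889 CPM against 259.9 to 376). Nerve library 6 stood above the others of its group for Col2a1 (369 CPM against 63.6 to 173) and Rspo3 (23.9 CPM against 9.87 to 14.8). Nerve library 6 stood below the others for Inmt (56.6 CPM against 108 to 134). ONL library 4 stood above the others of its group for Emcn (54.9 CPM against 33.8 to 39.3) and Bmper (5.71 CPM against 1.17 to 1.86). Nerve library 7 stood above the others of its group for Nell2 (86.5 CPM against 45.2 to 61.3) and Fabp7 (769 CPM against 293 to 465). ONL library 5 stood below the others for Tbx18 (21 CPM against 28.6 to 31). Nerve library 2 stood above the others of its group for Syt1 (43.7 CPM against 19.9 to 28.4). In ONL library 1, the shallowest, these genes were mostly neuronal. The cause of these gaps was not tested.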

How the results depend on the processing

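Against 6087 called genes, DESeq2 gave 6350, total-count, upper-quartile and size-factor scaling gave 6312, 6198 and 6084, no filter gave 5845 and a filter at 1 CPM gave 5500. The 12 libraries alone gave 5718 and the 16 early libraries 5258, a log2 fold change of at least 1 was also met by 3667, and leaving out 1 library gave 5435 to 5901. Total-count scaling moved the median log2 fold change from -0.03 to -0.10 and the split of calls to 2680 higher and 3632 lower. Of the 157 named genes tested, 139 kept direction and side of the threshold under every alternative that kept the averaged groups, 18 changed side under some and none changed direction. Without the 2 libraries of lowest depth, an alternative chosen after seeing the data, 5664 genes were called.

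With the libraries grouped by label 3421 genes were called, and with the 12 libraries labelled E13.5 alone 771, an alternative chosen after seeing the data. Each label also carries a number, which is not the library number used here. ONL and nerve libraries with equal label numbers had correlations of their deviations of -0.378, 0.0368, -0.043, -0.229 and 0.496. The labels do not say that equal numbers share an embryo, so this check cannot decide whether pieces were paired. A fit with the label number as a block called 3659 genes, and with the groups as labelled 4. For the same reason it cannot decide on pairing. By label, these log2 fold changes had the opposite sign: Prss56 -6.44, Npy -5.68, Hes5 -1.47, Lypd6 -0.83, Ptgds -0.99, Wif1 -8.02, Frzb -0.76, Adgrg1 -0.83, Dpysl3 -0.28, Hey2 -2.07, Ptn -1.69, Ptprz1 -0.22, Sema6a -0.02, Hes1 0.50, Cntn1 -0.41, Fyn -0.48, Mmd2 -1.79, Mir124-2hg -1.85, Samd3 -0.27, Tfap2e -8.54, Eomes -2.39, Gm17750 -7.25, Fezf2 -1.07, Pou3f2 -2.68, Nts -6.51, Tbr1 -2.84, Gabra2 -3.37, Fabp7 -1.57, Neurod6 -8.62, Neurod2 -7.21, Emx1 -3.41, Hopx -0.59, Gad1 -0.81, Gng8 0.07, Zic1 -1.50, Slc6a13 -1.53, Sox9 0.70, Col2a1 1.40, Prph 0.78, Apcdd1 -1.22, Wnt7a -2.51, Wnt7b -1.26, Dll1 -0.58, Epha3 -1.28, Efnb2 -1.42, Epha5 -1.94, Dcn -2.28, Slc1a2 -1.60, Glul -0.27, Sv2b -3.37, Gria1 -1.61, Gria2 -1.83 and Crabp2 0.20. In the 12 libraries alone by label they were Npy -5.62, Hes5 -1.43, Lypd6 -0.83, Wif1 -7.80, Frzb -0.77, Adgrg1 -0.83, Dpysl3 -0.28, Hey2 -2.06, Ptprz1 -0.21, Sema6a -0.02, Hes1 0.50, Cntn1 -0.41, Fyn -0.48, Mmd2 -1.79, Mir124-2hg -1.81, Samd3 -0.22, Nts -6.46, Tbr1 -2.81, Fabp7 -1.56, Neurod6 -8.46, Hopx -0.57, Gng8 0.07, Zic1 -1.46, Slc6a13 -1.46, Sox9 0.70, Col2a1 1.40, Prph 0.78, Apcdd1 -1.17, Wnt7b -1.23, Dll1 -0.58, Epha3 -1.25, Efnb2 -1.40, Epha5 -1.89, Dcn -2.28, Slc1a2 -1.57, Glul -0.26, Sv2b -3.27, Gria1 -1.52, Gria2 -1.79 and Crabp2 0.20. With the block by label they were Npy -2.63, Hes5 -0.87, Lypd6 -0.87, Wif1 -7.72, Frzb -0.74, Adgrg1 -0.85, Dpysl3 -0.36, Hey2 -2.30, Sema6a -0.00, Hes1 0.53, Cntn1 -0.15, Fyn -0.55, Mmd2 -2.29, Nts -1.86, Fezf1 0.15, Fabp7 -0.92, Neurod6 -7.98, Hopx -0.15, Gng8 0.37, Sox9 1.06, Col2a1 1.75, Pdgfrb 0.12, Prph 1.15, Apcdd1 -0.71, Dll1 -0.43, Hey1 0.33, Epha3 -0.95, Efnb2 -1.30, Epha5 -1.99, Dcn -2.52, Slc1a2 -0.32, Glul -0.17, Sv2b -4.22, Gria1 -1.83, Gria2 -0.19 and Crabp2 0.26. These fits do not tell which grouping is right.

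Depth limits the low group, where 3 counts are 0.107 to 0.83 CPM, so ratios of genes with few counts there are wide. Pieces of the same region that share an embryo make p-values too small, pieces of both regions from the same embryo can make them too large, and the net effect is not known. Strand was not given in the sources used here, so antisense partners may share reads.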

Other observations

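Gene families taken by symbol, chosen after their values were seen, are given beside the shares over all genes, of which 15.4% were higher and 16.1% lower. Of 207 odorant receptor genes tested, 146 were lower in the ONL and 1 was higher, with a median log2 fold change of -6.38 against -0.03 over all genes. Their summed level was 7.92 to 26.6 CPM in the ONL libraries and 239 to 681 CPM in the nerve libraries, and 2 to 6 receptor genes exceeded 1 CPM in an ONL library against 47 to 130 in a nerve library. Receptor genes are a large family of similar sequences, so reads shared between copies leave single members uncertain. Without the 2 libraries of lowest depth 120 were lower, and under the labels 60 were lower and 12 higher. Of 34 genes of the flavin monooxygenase, sulfotransferase, glucuronosyltransferase and glutathione transferase families, 18 were lower and 2 higher (median -0.97), and under the labels 8 and 1. Of 32 metalloproteinase genes 14 were lower and 3 higher (median -0.73), and under the labels 2 and 2. Of 16 fibroblast growth factor genes 7 were lower and 2 higher (median -0.99), and under the labels 1 was lower.

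On the ONL side all 5 Zic genes, zinc finger factors of meninges and dorsal neural tissue, were higher, and their sum was 249.9 to 358 CPM in the ONL and 0.189 to 5.89 CPM in the nerve. All 4 class III POU factors, neural regulators, were higher too (median 6.69). Among 8 beta-tubulin genes 7 were higher and 1 lower (median 1.79; 2 higher under the labels), and their sum was 4820.3 to 7634 CPM against 2434 to 3879 CPM. Of 24 calcium channel subunits 12 were higher and 1 lower (median 0.89), and under the labels 4 and 1. Of 82 potassium channel subunits 27 were higher and 9 lower (median 0.39), and under the labels 5 and 9. Of 53 clustered protocadherin genes 1 was higher and 1 lower (median 0.02), and under the labels 3 and 4. Under the labels none of the Zic or class III POU genes was called.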
